A study of Mus musculus with 12 samples.

Results

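The PDZ-LIM and FHL genes encode small adaptor proteins of the contractile apparatus, and 9 of them were followed here in mouse heart RNA with and without Med30: Pdlim1, Pdlim2, Pdlim3, Pdlim4, Pdlim5, Pdlim7, Fhl1, Fhl2 and Fhl3. They are 9 of the 20775 genes in each of 2 RPKM tables (reads per kilobase of a gene and per sequencing depth), and all 9 were found in both. They were named as a family but chosen by their differences between knockout and control in both tables. Their knockout differences are therefore described without a test, and nothing is read from how many of them differed. RNA was sequenced from hearts of embryos at E10.5 (3 Ctrl and 3 cKO samples) and from cardiomyocytes of adult mice aged 3 months, taken 4 weeks after tamoxifen (3 Ctrl and 3 icKO samples). The labels name heart as the source of all 12 samples, while the extract protocol gives cardiomyocytes for the adult ones, so how far other cells were removed from these is not settled. The mice were C57BL/6, and all of them carried Med30 alleles with loxP sites around the first exon, derived from a single targeted stem cell clone. The cKO embryos also carried Tnnt-Cre, which acts in cardiomyocytes, while the labels call their Cre-negative littermates wild type. The icKO adults carried the tamoxifen-activated αMHC-MerCreMer, also driven in cardiomyocytes, and their controls were Med30 f/f without Cre that received tamoxifen too. In these samples an effect of Cre itself cannot be told apart from loss of Med30. Its product is a subunit of the Mediator complex, which links transcription factors to RNA polymerase II. The authors reported no mortality or cardiac dysfunction in tamoxifen-treated αMHC-MerCreMer mice that lacked floxed alleles, whose RNA is not among these samples. E10.5 samples were whole hearts, so they held cells in which Cre was never active. The sources used here do not say whether a sample was 1 animal or a pool, so p-values measure only the spread between these samples.

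PDZ-LIM proteins hold a PDZ domain, which binds alpha-actinin at the Z-disc, and LIM zinc fingers, which bind kinases and other partners. Pdlim1, Pdlim2, Pdlim3 and Pdlim4 belong to the ALP group, and Pdlim5 (ENH) and Pdlim7 (Enigma) to the Enigma group together with Ldb3 (Cypher), whose product keeps Z-discs intact under load. FHL proteins consist of LIM domains alone and sit at the I-band and Z-disc, and they also act in the nucleus as cofactors. In the heart, Fhl1 takes part in the sensing of stretch by titin and Fhl2 restrains calcineurin and ERK signalling. By the longest annotated coding sequence, Fhl2 (279 codons), Fhl3 (289) and Fhl1 (323) were shorter than Pdlim5 (614) and Pdlim7 (457), and the ALP group lay between 327 and 364 codons.

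Med30 itself was lower in every knockout sample. At E10.5 its RPKM were 10.6, 13.3 and 11.3 in Ctrl and 1.38, 2.02 and 1.004 in cKO (log2 fold change −2.96, SE 0.225, limma adjusted p = 0.000367), and at 4 weeks they were 7.66, 7.45 and 7.66 in Ctrl and 3.81, 3.16 and 1.83 in icKO (−1.40, SE 0.229, adjusted p = 0.000403). The libraries held an estimated 11.97 to 19.99 M reads on genes. A transcript of 2 kb hit by 3 reads would have 0.0750 to 0.125 RPKM, a floor for counting error alone. The RPKM scale matters most in the adult samples. There the 20 most abundant genes took 24.8% to 25.4% of the summed RPKM in Ctrl and 11.5% to 13.1% in icKO, and the median log2 fold change over all 9517 genes tested was 0.57 as deposited. Median-ratio scaling, which sets the typical gene level between libraries, brought that median to 0.01, and at E10.5 it moved it from −0.13 to −0.01. Member values are given as deposited first and after this scaling second. In the adult samples all 9 cardiomyocyte markers were lower in icKO (summed RPKM 27897 to 29334 in Ctrl, 8776 to 11872 in icKO) and all 8 fibroblast markers were higher (5.03 to 8.39 and 60.4 to 87.5), with Tcf21 under an RPKM of 1 throughout. Mural markers that are on no other list here summed to 5.82 to 15.05 in Ctrl and 19.0 to 36.5 in icKO, with 3 of 5 higher without overlap. Of all adult genes tested, 62.0% were higher without overlap and 18.9% lower. All marker sums and counts are as deposited. The median-ratio factors were 0.818 to 0.828 in Ctrl and 1.18 to 1.24 in icKO, so scaling would raise the Ctrl sums and lower the icKO sums. At E10.5 the same mural markers summed to 11.2 to 14.7 in Ctrl and 15.6 to 16.2 in cKO. There 2 of the 5 were higher without overlap, where 6.50% of all genes tested were, and 2 of the 5 stayed under an RPKM of 1. Of the 9 cardiomyocyte markers, 5 were lower there without overlap, where 22.6% of all genes tested were. Their sums were 6953 to 10289 in Ctrl and 4798 to 5745 in cKO for all 9, while the fibroblast sums overlapped (90.6 to 166 and 116 to 133). No marker of any list was at 0 in all samples. These tables come from bulk RNA, so fewer cells of a type and less RNA per cell cannot be told apart, and the part that shifts in cell types or in a few abundant transcripts have in the member values below was not tested.

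In control samples the family was led by different genes at the 2 ages. These levels are RPKM, which are per length, but whole hearts and the adult cardiomyocyte samples were tabulated separately, so the comparison across ages is a description. In E10.5 Ctrl hearts Pdlim5 had the highest mean at 52.7 ± 3.94 RPKM (SD, n = 3), followed by Pdlim3 at 37.3 ± 13.5, Fhl2 at 31.6 ± 5.05, Pdlim1 at 29.3 ± 3.41, Pdlim7 at 27.8 ± 3.87 and Fhl1 at 23.7 ± 2.07. Each neighbour in this order overlapped the next one over the 3 samples, so only the step down to Fhl3 (3.18 ± 1.02), and from there to Pdlim2 (1.07 ± 0.262) and Pdlim4 (0.291 ± 0.202), separated the samples. In adult Ctrl cardiomyocytes Fhl2 stood at 634 ± 114 RPKM, the 34th most abundant of 20775 genes, and Pdlim5 at 191 ± 15.5, the 165th. Fhl1 followed at 33.0 ± 3.77, and Pdlim1 (16.5 ± 0.888) and Pdlim7 (16.1 ± 1.17) overlapped each other. Pdlim3 (5.28 ± 0.383), Pdlim4 (3.74 ± 0.573), Fhl3 (2.32 ± 0.115) and Pdlim2 (0.0980 ± 0.0934) closed the order without overlap. In the icKO cardiomyocytes the order was Pdlim5, Pdlim7 (rank 206 of all genes), Fhl1 (493), Pdlim1 (514) and Fhl2 (804), and there only Fhl1 and Pdlim1, and Pdlim4 and Fhl3, overlapped as neighbours.

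**Figure D1:**
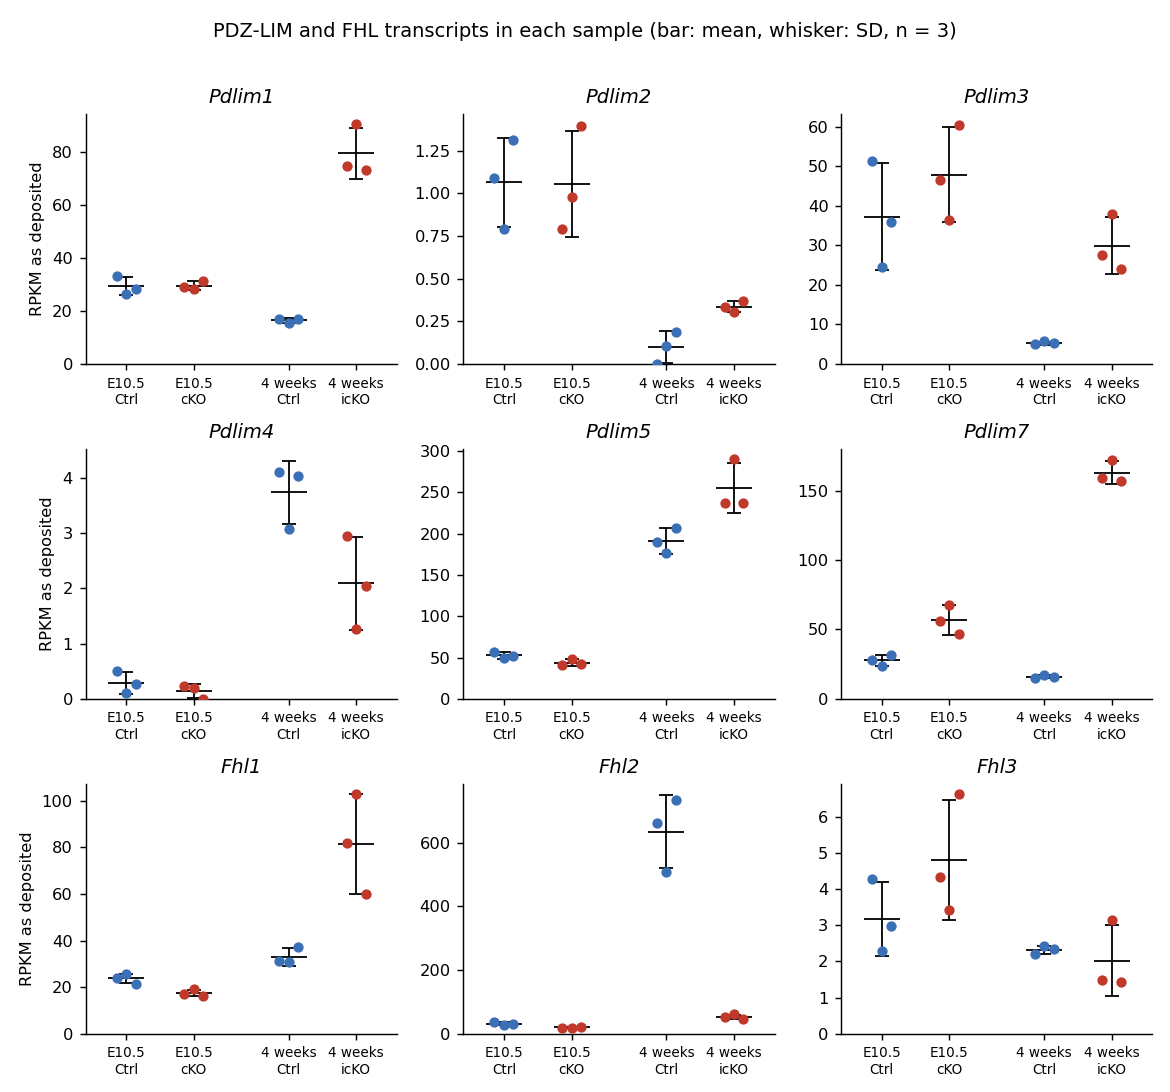
RPKM as deposited (y axis, linear and separate for each gene) of the 9 genes in the 12 samples. Points are samples (blue Ctrl, red knockout), horizontal bars are means and whiskers are SD (n = 3 per group). Fhl2 stands at 509 to 734 in adult Ctrl and at 46.9 to 60.8 in icKO, while Pdlim7 goes from 15.1 to 17.4 in adult Ctrl to 157 to 172 in icKO.

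Fhl2, at chr1:43123074-43196984 on the minus strand (GRCm38, protein coding), showed the most negative difference of the 9 genes in adult cardiomyocytes. Its RPKM were 660, 509 and 734 in Ctrl and 51.1, 60.8 and 46.9 in icKO. The groups lay far apart, with the icKO mean of 52.9 ± 7.14 at 0.0834 of the Ctrl mean. The log2 fold change was −3.57 ± 0.191 (SE of the difference between means of log2(RPKM + 0.1), n = 3 per group) as deposited and −4.14 ± 0.187 after median-ratio scaling. In E10.5 hearts Fhl2 read 37.4, 28.3 and 29.2 in Ctrl and 18.4, 19.2 and 21.2 in cKO. These groups did not overlap either, with a cKO mean of 19.6 ± 1.46 and a log2 fold change of −0.68 ± 0.142 (scaled −0.56 ± 0.0801).

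The 5 motifs searched before the transcription starts of the family were the CArG box bound by SRF, the MEF2 site, the TEAD motif CATTCC, a motif of GATA factors with the letters AGATAA, and the TATA box in the form TATAAA. RefSeq start windows on GRCm38 were matched for 8 of the 9 genes (all but Pdlim2), 11 windows in all, and 250 bases before each start were searched on both strands. A CArG box is found in 1.47% of 32851 windows of this length, a MEF2 site in 2.92%, CATTCC in 12.6%, AGATAA in 9.99% and TATAAA in 12.4%. The members with a CArG box were Fhl1 and Fhl2, and Fhl2 has one before each of its 2 starts. The sequences are shown because these genes carry the largest adult FHL levels. Capitals mark the CArG box before the proximal start (bases −31 to −22), and the CArG box before the distal start (bases −96 to −87), the latter shown as a site of 30 bases.
Fhl2 proximal, chr1:43163962-43164211, minus strand: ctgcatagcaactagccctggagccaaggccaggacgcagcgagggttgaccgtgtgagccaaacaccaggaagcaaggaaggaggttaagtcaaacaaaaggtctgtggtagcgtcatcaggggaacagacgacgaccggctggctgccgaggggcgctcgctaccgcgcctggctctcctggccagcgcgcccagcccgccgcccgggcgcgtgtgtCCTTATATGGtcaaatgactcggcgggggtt
Fhl2 distal, chr1:43196838-43196867, minus strand: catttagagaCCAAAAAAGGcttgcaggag
The distal window also holds a MEF2 site (bases −31 to −22). On the other strand this window holds TATAAA, which overlaps the MEF2 site, and AGATAA. Most of it (223 of 250 bases) is annotated as exon of a longer transcript. A match describes letters in a window and not binding of a factor.

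Fhl1, at chrX:56731787-56793346 on the plus strand, differed from Ctrl in the direction opposite to Fhl2 in the adult samples. Its RPKM were 31.1, 30.6 and 37.4 in Ctrl and 81.7, 103 and 60.2 in icKO. All icKO samples lay above all Ctrl samples, but icKO replicate 3 was well below replicate 2, and the mean of 81.6 ± 21.5 was 2.47-fold the Ctrl mean. The log2 fold change was 1.28 ± 0.243 as deposited and 0.71 ± 0.225 after scaling. In E10.5 hearts Fhl1 was lower instead, with 24.1, 25.6 and 21.5 in Ctrl and 17.2, 19.0 and 16.2 in cKO. Those groups did not overlap (log2 fold change −0.44 ± 0.0996, scaled −0.32 ± 0.139). Of the windows of Fhl1, the more upstream one holds a CArG box (bases −102 to −93) and, on the other strand, TATAAA (bases −156 to −151). Of the 250 bases of this window, 87 are annotated as exon. The annotated gene begins further upstream (chrX:56731787), where no window was matched. Both matches are in capitals here over the 159 bases next to the start.
Fhl1, chrX:56779524-56779682, plus strand: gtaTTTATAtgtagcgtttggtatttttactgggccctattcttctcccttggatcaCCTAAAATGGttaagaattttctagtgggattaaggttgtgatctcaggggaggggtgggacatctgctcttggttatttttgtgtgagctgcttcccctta
Fhl1 and Fhl2 thus each hold a CArG match near a start, and the window of Fhl3 holds none. Whether these matches bear on the transcript levels was not tested.

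The ratio of Fhl2 to Fhl1 within a sample does not depend on scaling between samples. In adult Ctrl it was 21.3, 16.6 and 19.6, and in icKO it was 0.625, 0.590 and 0.779. Fhl2 was thus the more abundant of the pair per length in every control sample and the less abundant one in every icKO sample. In E10.5 hearts the ratio was 1.34 ± 0.228 in Ctrl and 1.13 ± 0.161 in cKO, and the samples overlapped. Fhl3, an FHL gene better known from skeletal muscle (chr4:124700701-124708611, plus strand), stayed low. In adult cells it read 2.20, 2.43 and 2.34 in Ctrl and 1.48, 3.16 and 1.44 in icKO, where replicate 2 lay above all controls and the others below. The log2 fold change of Fhl3 was −0.28 ± 0.357 as deposited, with overlap, and −0.82 ± 0.344 after scaling, without overlap. In E10.5 hearts it read 4.29, 2.28 and 2.98 in Ctrl and 4.33, 3.43 and 6.65 in cKO, again with overlap (0.57 ± 0.375).

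Pdlim7, which encodes Enigma, had the highest positive difference of the family at both ages. In adult cardiomyocytes it read 15.1, 17.4 and 15.7 RPKM in Ctrl and 159, 172 and 157 in icKO. The groups lay far apart and were tight, with an icKO mean of 163 ± 8.22 that was 10.1-fold the Ctrl mean. Its log2 fold change was 3.33 ± 0.0724 as deposited and 2.77 ± 0.0669 after scaling. In E10.5 hearts Pdlim7 read 28.2, 23.8 and 31.5 in Ctrl and 56.4, 67.9 and 46.5 in cKO. The embryonic groups did not overlap either, the cKO mean of 56.9 ± 10.7 was 2.04-fold the Ctrl mean, and the log2 fold change was 1.02 ± 0.196 (scaled 1.14 ± 0.215). Pdlim7 lies at chr13:55495795-55513676 on the minus strand and shares 68 exon bases with the microRNA gene Mir6945 on the same strand. None of the 5 motifs matched its window, of which 73 of 250 bases are annotated as exon. The 157 bases next to the matched start, none annotated as exon, are shown because this gene has the highest fold. They lie within the annotated gene, downstream of these exon bases.
Pdlim7, chr13:55513447-55513603, minus strand: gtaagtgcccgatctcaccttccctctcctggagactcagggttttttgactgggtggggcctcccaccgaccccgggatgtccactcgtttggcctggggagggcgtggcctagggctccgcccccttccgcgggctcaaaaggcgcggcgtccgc

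Pdlim5, which encodes the kinase-binding Enigma homologue ENH, was abundant at both ages, and its direction depended on age and scale. In adult cells it read 190, 176 and 207 in Ctrl and 238, 291 and 238 in icKO. As deposited the groups did not overlap and the log2 fold change was 0.41 ± 0.118, but after median-ratio scaling they overlapped and it was −0.15 ± 0.115. In E10.5 hearts it read 56.8, 49.0 and 52.4 in Ctrl and 41.1, 48.5 and 42.4 in cKO, without overlap (−0.26 ± 0.0962), and with overlap after scaling (−0.14 ± 0.0923). Pdlim5 lies at chr3:142239590-142395696 on the minus strand and has 13 annotated transcripts, and the tables give 1 value per gene, so its isoforms were not distinguished. The ratio of Pdlim5 to Pdlim7, free of scaling, was 12.5, 10.2 and 13.2 in adult Ctrl and 1.496, 1.69 and 1.51 in icKO. In E10.5 hearts it was 2.01, 2.06 and 1.66 in Ctrl and 0.728, 0.715 and 0.912 in cKO. At each age every knockout sample had a lower ratio than every control.

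Ldb3, which encodes the Enigma-group protein Cypher and was not one of the 9 genes, was read beside them. In adult cells it read 291, 309 and 318 in Ctrl and 211, 236 and 251 in icKO. The difference was below the fold threshold as deposited (log2 fold change −0.40, SE 0.0847, limma adjusted p = 0.00198) and also after scaling (−0.97, adjusted p = 3.15e-05). In E10.5 hearts Ldb3 read 40.1, 33.9 and 40.1 in Ctrl and 44.0, 44.4 and 46.4 in cKO, a difference of 0.24 (adjusted p = 0.224, and 0.0384 after scaling at 0.36). The ratio of Pdlim7 to Ldb3 was 0.0525 ± 0.00343 in adult Ctrl and 0.704 ± 0.0680 in icKO, and 0.730 ± 0.0485 and 1.27 ± 0.264 in E10.5 Ctrl and cKO. The other FHL genes, Fhl4 and Fhl5, were low at both ages. In E10.5 hearts Fhl4 read 0.465, 0.305 and 0.324 RPKM in Ctrl and 0.404, 0.0850 and 0 in cKO, about 31.6 reads at most. The embryonic groups of Fhl4 overlapped. In adult cells it read 0.0850, 0.149 and 0.0440 in Ctrl and 0.265, 0.245 and 0.249 in icKO, without overlap but on no more than about 15.2 reads. Fhl5 was listed at 0 in 5 of the 6 samples at each age.

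Of the ALP group, Pdlim1 and Pdlim3 were higher in every adult icKO sample. Pdlim1, which encodes the alpha-actinin-binding protein CLP36 (chr19:40221173-40271842, minus strand), read 17.1, 15.5 and 16.9 in Ctrl and 74.8, 90.7 and 73.1 in icKO. The icKO mean of 79.6 ± 9.70 was 4.83-fold the Ctrl mean (log2 fold change 2.26 ± 0.108, scaled 1.70 ± 0.101). In E10.5 hearts the same gene read 33.1, 26.4 and 28.3 in Ctrl and 29.0, 28.3 and 31.4 in cKO. These embryonic groups overlapped and differed by 0.02 ± 0.105 on the log2 scale, and after scaling they no longer overlapped (0.14 ± 0.0406). Pdlim3, which encodes the muscle protein ALP itself (chr8:45885461-45919548, plus strand), read 4.94, 5.70 and 5.20 in adult Ctrl and 27.7, 37.9 and 24.1 in icKO. Its icKO mean of 29.9 ± 7.15 was 5.67-fold the Ctrl mean (2.46 ± 0.201, scaled 1.90 ± 0.185). In E10.5 hearts Pdlim3 varied widely within groups, with 51.3, 24.5 and 36.0 in Ctrl and 46.7, 36.5 and 60.5 in cKO, and the groups overlapped (0.40 ± 0.373). Its start window holds CATTCC at 2 places, at bases −201 to −196 on the other strand and at bases −11 to −6. The latter match lies among the 26 of 250 bases annotated as exon.

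Pdlim4 and Pdlim2 were the least abundant PDZ-LIM genes. Pdlim4, whose product RIL binds alpha-actinin on actin filaments (chr11:54054928-54069014, minus strand), read 4.10, 3.08 and 4.04 in adult Ctrl and 2.95, 1.26 and 2.05 in icKO. Of the 6 PDZ-LIM genes among the members it was the only one lower without overlap in the adult samples on the deposited scale (log2 fold change −0.87 ± 0.361, scaled −1.42 ± 0.359), and the values rest on about 25.0 to 80.7 reads. Without icKO replicate 2, its lowest sample, the log2 fold change was −0.57, and without icKO replicate 1 it was −1.15. In E10.5 hearts it came to at most 11.95 reads in a sample and was listed at 0 in cKO replicate 3. Pdlim2, whose product targets NF-κB and STAT proteins for degradation in immune cells (chr14:70164218-70177681, minus strand), came to about 0, 2.99 and 4.96 reads in adult Ctrl and 8.94, 7.97 and 6.97 in icKO, and no fold is given at this depth. In E10.5 hearts Pdlim2 read 1.09, 0.792 and 1.31 RPKM in Ctrl and 0.793, 0.977 and 1.40 in cKO. These groups overlapped, and the log2 difference was −0.02 ± 0.292 as deposited and 0.09 ± 0.260 after scaling.

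**Figure D2:**
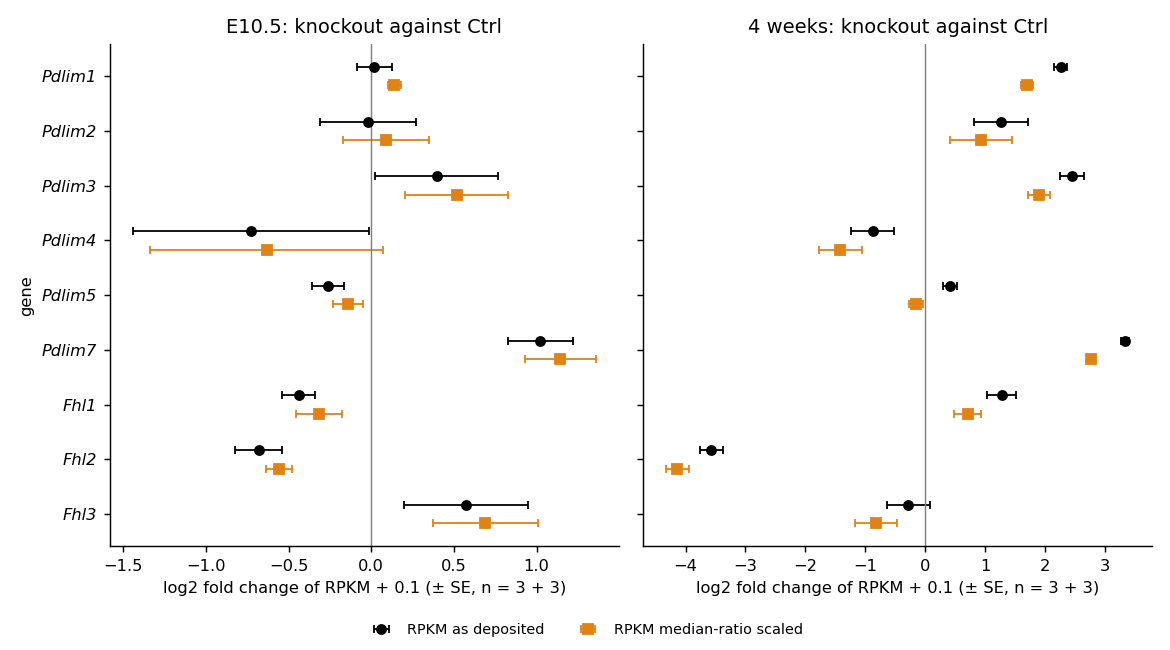
Log2 fold change of RPKM + 0.1, knockout against Ctrl (x axis), of the 9 genes (y axis) at E10.5 (left) and 4 weeks (right). Points are differences of group means with the SE as whiskers (n = 3 per group), black as deposited and orange after median-ratio scaling. Pdlim7 is positive at both ages and Fhl2 negative at both, on either scale, while Pdlim5 at 4 weeks is 0.41 as deposited and −0.15 after scaling.

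Of the 9 genes, 8 had a mean RPKM above 1 at each age (Pdlim4 did not at E10.5, nor Pdlim2 at 4 weeks). In adult cells 5 of these 8 were higher without overlap of the groups, where 62.0% of all genes tested were, and 2 were lower, where 18.9% of all were. After scaling, 4 were higher (36.4% of all) and 3 lower (36.9% of all). A log2 fold change above 1 was seen in 4 members (28.2% of all) and one below −1 in Fhl2 alone (8.49% of all). Pdlim1, Pdlim3 and Pdlim7 were still above 1 after scaling (11.1% of all), and Fhl2 and Pdlim4 below −1 (16.0% of all). At E10.5, Pdlim7 was higher without overlap (6.50% of all) and also the only member with a log2 fold change above 1 (0.514% of all), while Fhl1, Fhl2 and Pdlim5 were lower without overlap (22.6% of all). No member that passed the filter was below −1 at E10.5 (0.955% of all, and 0.680% after scaling). After scaling at E10.5, Pdlim7 was again the only member above 1 (0.689% of all), Pdlim1 and Pdlim7 were higher without overlap (15.2% of all) and Fhl1 and Fhl2 lower (14.2% of all). The genes were chosen with these contrasts known, so the shares are background and no excess is drawn from them.

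The make-up of the family pool, that is the share of each gene in the summed RPKM of the 9 genes, does not depend on scaling between samples. Shares add up to 100%, so a smaller share of one gene goes with larger shares of others. In adult Ctrl cells Fhl2 took 71.4%, 67.0% and 71.7% of the pool, and in icKO it took between 7.77% and 8.02%. Pdlim5 went from 21.3% ± 1.64 to 38.3% ± 1.03 (SD, n = 3), Pdlim7 from 1.82% ± 0.406 to 24.6% ± 1.74 and Pdlim1 from 1.84% ± 0.193 to 11.9% ± 0.191. Fhl1 took 3.68% ± 0.334 in Ctrl and 12.1% ± 1.89 in icKO. The summed RPKM of the 6 PDZ-LIM genes was 231, 218 and 249 in Ctrl and 503, 593 and 495 in icKO, and that of the 3 FHL genes was 694, 542 and 773 in Ctrl and 134, 167 and 108 in icKO. Neither pair of sums overlapped, so the adult pool was mostly FHL transcript in Ctrl and mostly PDZ-LIM transcript in icKO.

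The shares were also taken within each subfamily, where Pdlim5 moved in the other direction than in the whole pool. Among PDZ-LIM transcripts alone, Pdlim5 took 82.1% ± 1.14 in adult Ctrl and 48.1% ± 0.841 in icKO, and Pdlim7 took 6.94% ± 0.892 and 30.8% ± 1.54. Pdlim1 took 7.09% ± 0.328 and 14.99% ± 0.270 of the same sum. Among FHL transcripts alone, a sum that Fhl2 leads in Ctrl, Fhl2 took 94.7% ± 0.675 and 39.2% ± 3.56, and Fhl1 took 4.98% ± 0.600 and 59.3% ± 3.39. In E10.5 hearts the shifts of the whole pool were smaller. Pdlim7 took 13.5% ± 1.81 in Ctrl and 25.7% ± 4.90 in cKO, Pdlim5 25.6% ± 1.55 and 19.9% ± 1.57, Fhl2 15.3% ± 0.798 and 8.84% ± 0.465, and Fhl1 11.6% ± 2.22 and 7.90% ± 0.683. For each of these 4 genes the embryonic groups did not overlap, while the share of Pdlim3 overlapped (17.6% ± 4.07 and 21.6% ± 5.23).

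**Figure D3:**
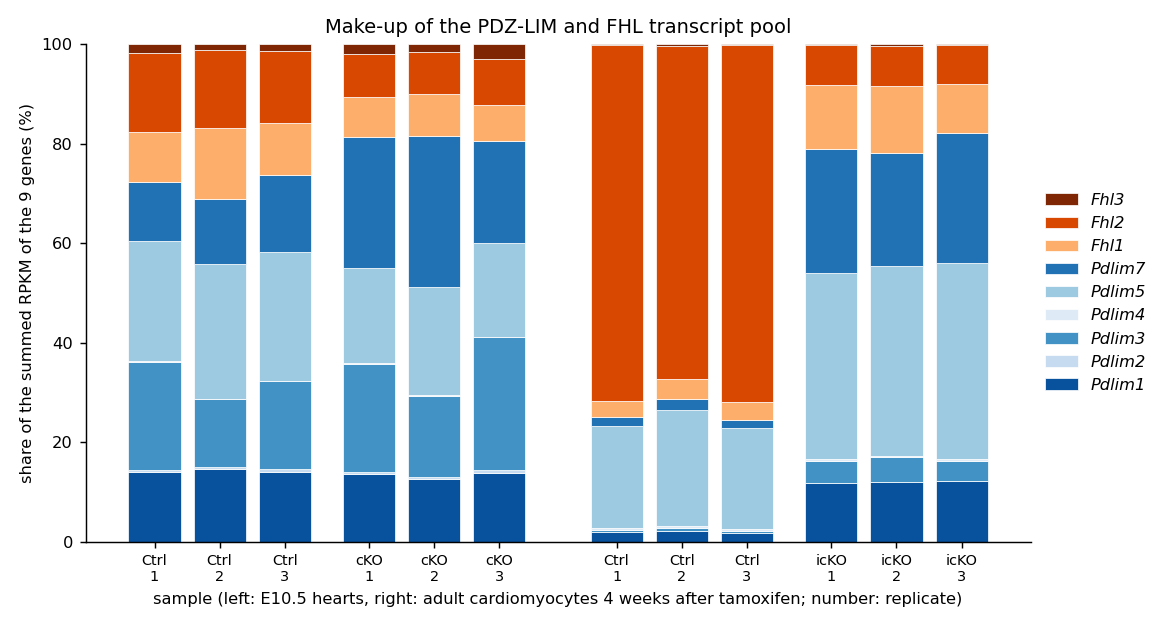
Share of each gene in the summed RPKM of the 9 genes (y axis, percent) in each of the 12 samples (x axis, E10.5 left and 4 weeks right). Blue tones are PDZ-LIM genes and orange tones FHL genes. Fhl2 fills 67.0% to 71.7% of each adult Ctrl bar and 7.77% to 8.02% of each icKO bar, and the embryonic bars change less.

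Partner genes of the family were read from 5 lists with 87 entries in all: the other PDZ-LIM and FHL genes, other LIM-domain proteins, alpha-actinins, filamins and further Z-disc proteins, signalling and transcription partners, and actin cytoskeleton genes known as SRF targets. Calls needed an adjusted p of limma under 0.05 together with a log2 difference beyond 1 in size. At 4 weeks 75 of the 87 were tested, of which 29 rose and 10 fell, where 28.0% of all genes tested rose and 8.45% fell. After median-ratio scaling the split was 20 and 16, with 11.1% and 15.9% of all genes. At E10.5 75 were tested, 3 rose and 0 fell (0.239% and 0.542% of all genes), and after scaling 4 rose and 0 fell (0.322% and 0.377%). None of these list genes had an unadjusted p under 0.05 with a log2 fold change below −1 at E10.5, and 9 had such a p with any negative difference.

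Among 25 other LIM-domain genes tested in adult cells, 8 rose and 6 fell, with a median log2 fold change of 0.73 beside 0.57 for all genes (scaled 0.21 and 0.01). Lmcd1, a cofactor that works with calcineurin, rose from 10.2 ± 1.26 to 90.2 ± 7.62 RPKM (log2 fold change 3.14, SE 0.107, adjusted p = 1.34e-07), and Zyx, the zyxin of focal adhesions, rose from 8.31 ± 1.40 to 73.9 ± 9.57 (3.14, adjusted p = 3.02e-07). Tgfb1i1, the adhesion protein Hic-5, rose from 0.167 ± 0.0871 to 2.14 ± 0.529 (3.10, adjusted p = 3.10e-05). The Ctrl values of Tgfb1i1 (0.179, 0.0750 and 0.248) lie near the 3-read floor, and its log2 fold change was 1.42 with a pseudocount of 1 and 3.71 with one of 0.01. Crip2, a LIM protein abundant in heart, fell from 493 ± 28.3 to 64.3 ± 11.4 (−2.95, adjusted p = 2.96e-07), and Fblim1, the filamin-binding migfilin, fell from 54.2 ± 4.12 to 7.57 ± 1.13 (−2.83, adjusted p = 2.42e-07). Ablim1, an actin-binding LIM protein, fell from 84.3 ± 4.58 to 23.6 ± 2.07 (−1.84, adjusted p = 4.36e-07). At E10.5 Lims2, which encodes the integrin adaptor PINCH2, was the only list gene of this group called, at 0.474, 0.523 and 0.699 in Ctrl and 2.13, 2.09 and 1.86 in cKO (1.69, SE 0.279, adjusted p = 0.0215), and it lost the call in 4 of the 6 fits that leave out 1 sample (adjusted p up to 0.0836) and with a pseudocount of 1 (0.95).

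Of the 12 Z-disc partners tested in adult cells, 4 rose and 1 fell (median 0.74, scaled 0.17), and after scaling 4 rose and 4 fell. Actn1, a non-sarcomeric alpha-actinin, rose from 3.18 ± 0.295 to 73.3 ± 12.9 RPKM (4.47, SE 0.133, adjusted p = 8.11e-08), and Actn4, the other non-muscle form, from 5.68 ± 1.37 to 31.7 ± 1.36 (2.49, adjusted p = 1.63e-06). Flna, the widely expressed filamin that crosslinks actin, rose from 1.44 ± 0.429 to 18.8 ± 1.52 (3.66, adjusted p = 7.65e-07). Tcap, the telethonin that caps titin at the Z-disc, fell from 918 ± 29.4 to 162 ± 45.8 (−2.54, adjusted p = 1.98e-06).

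Of 24 signalling and transcription partners tested in adult cells, 9 rose and 2 fell as deposited, and 2 rose and 3 fell after scaling. Rela, the NF-κB subunit that Pdlim2 acts on, rose from 4.58 ± 0.239 to 20.8 ± 1.43 (2.16, adjusted p = 3.25e-07). Sphk1, the sphingosine kinase that Fhl2 can bind, read 0, 0.0370 and 0.0770 in Ctrl and 4.73, 5.48 and 4.29 in icKO (adjusted p = 7.74e-07), and its fold is not given because the Ctrl values are at or under 3 reads. Mkl1, the SRF coactivator also called MRTF-A, rose from 0.973 ± 0.0802 to 2.79 ± 0.406 (1.42, adjusted p = 5.83e-05) and was not called after scaling at 0.89. Tbx5, a cardiac transcription factor known to bind Pdlim7, fell from 8.17 ± 1.59 to 2.51 ± 0.369 (−1.65, adjusted p = 2.37e-05), and Nfatc2, a target of calcineurin, fell from 4.27 ± 0.766 to 1.83 ± 0.475 (−1.19, adjusted p = 0.000597), but lay under the fold threshold with a pseudocount of 1 (−0.90).

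The actin cytoskeleton list had the highest median of the lists, 1.47 in adult cells (scaled 0.91), with 8 of 13 genes called higher and 1 lower, and with 6 and 1 after scaling. Cnn1, the calponin of smooth muscle, read 0.267, 0.0860 and 0.148 in Ctrl and 330, 180 and 253 in icKO (9.91, SE 0.271, adjusted p = 8.11e-08), a fold that depends on the pseudocount because the Ctrl values lie near the 3-read floor. Tpm2, a tropomyosin, rose from 0.494 ± 0.206 to 8.65 ± 2.35 (3.92, adjusted p = 3.64e-06), and Cnn2, a further calponin, from 7.58 ± 0.739 to 45.6 ± 3.34 (2.58, adjusted p = 2.03e-07). Actg1, cytoplasmic gamma-actin, fell from 9.68 ± 1.999 to 4.66 ± 0.834 (−1.04, adjusted p = 0.000453). It lay under the fold threshold without Ctrl replicate 2 (−0.87) or icKO replicate 3 (−0.91), and with a pseudocount of 1 (−0.91). At E10.5 Cnn1 rose from 52.3 ± 5.71 to 128 ± 12.8 (1.29, SE 0.131, adjusted p = 0.00203) and Acta1, skeletal alpha-actin, from 114 ± 3.18 to 288 ± 46.6 (1.32, SE 0.150, adjusted p = 0.00409). Cnn1, Acta2 and Tagln are on the mural list too. Of the 8 mural markers, 4 were higher without overlap at E10.5 as deposited, where 6.50% of all genes tested were. In adult cells 5 of the 8 were, where 62.0% of all genes tested were. Tagln, the smooth muscle protein transgelin, rose there from 1.07 ± 0.576 to 4.15 ± 1.40 (1.91, SE 0.359, adjusted p = 0.000967, and 1.38 after scaling). Acta2, the smooth muscle actin, was not called (49.0, 63.5 and 31.9 in Ctrl, 27.6, 37.0 and 42.7 in icKO).

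**Figure D4:**
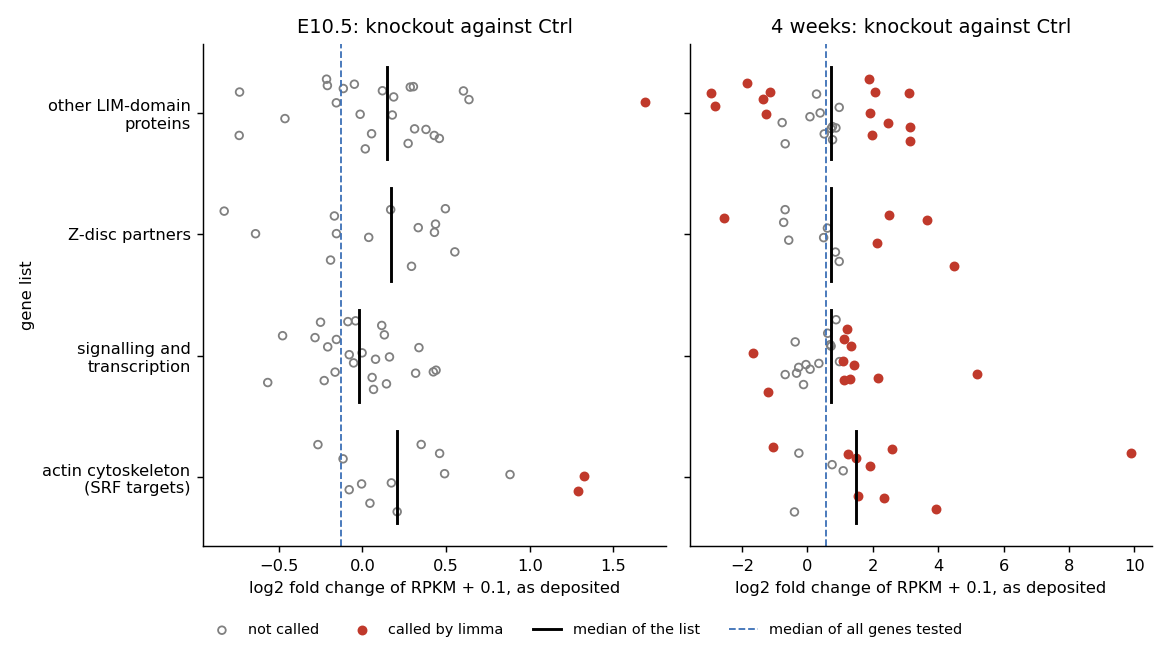
Log2 fold change of RPKM + 0.1 as deposited (x axis) for the genes of 4 lists (y axis, points spread for visibility) at E10.5 (left) and 4 weeks (right). Red points were called by limma and open points were not, black bars are list medians and the dashed line is the median of all genes tested. At 4 weeks the actin list has its median at 1.47, right of the line at 0.57, and the other lists lie between 0.71 and 0.74, and after median-ratio scaling these medians are 0.91 and between 0.15 and 0.21.

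Genes with a pattern like that of a member were sought over the 12 samples among 8909 genes with a mean RPKM above 1 at both ages, by Pearson's r of log2(RPKM + 0.1). The samples fall into 4 groups and share libraries with the members, so r mostly follows the group levels and is a description. Fhl2 was most like Atp2a2 (r = 0.995), the calcium pump of the sarcoplasmic reticulum, Acaa2 (0.994), an enzyme of mitochondrial fatty acid oxidation, and the LIM-domain gene Lmo7 (0.994). Pdlim7 was most like Polr2a (0.991), the largest subunit of RNA polymerase II, Lats2 (0.986), a Hippo kinase, and Vasn (0.983). Pdlim5 was most like Dnajc30 (0.996), Cenpb (0.995) and Cavin4 (0.995), a caveolar protein of muscle. Pdlim1 was most like Dync1li2 (0.994), Rras2 (0.992) and Ubxn4 (0.992), and Pdlim3 was most like Tlk1 (0.990), Arhgap17 (0.987) and Epb41l1 (0.986). Fhl1 was most like Ubl5 (0.985), Irgq (0.981) and Ube2a (0.981), and Fhl3 reached only 0.869 with Hebp1.

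Sequence shared between the genes was searched because reads of near-identical copies can be counted on the wrong gene. Among 66 pairs of the 12 family genes, 0 pairs shared a stretch of 50 bases in their annotated transcripts. Pdlim7 apart, no member shared exon bases with another annotated gene. Every member has several annotated transcripts (from 3 for Fhl2 and Fhl3 to 13 for Pdlim5), so a gene value may combine forms with different domains.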

How the data were processed

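RNA from 12 samples was sequenced after ribosomal depletion. The authors mapped reads to GRCm38/mm10, counted them per gene and deposited, per age, a table of RPKM for 20775 genes, in which values are per kilobase and per sequencing depth (the read total used and the gene annotation are not given in the sources used here). The submitters' processing notes name cutadapt 2.6, STAR 2.5.3a, HOMER 4.11.1 and DESeq2 1.12.4. The tables also hold the authors' log2 fold changes and adjusted p-values of knockout against control, which were not used. Columns were matched to samples by name, with 0 sample columns left unmapped.

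The ages were fitted separately with limma 3.58.1 in R 4.3.3 (lmFit and eBayes with a trend), using log2(RPKM + 0.1) of those genes whose mean RPKM over 6 samples exceeded 1, with Benjamini-Hochberg adjustment over all genes tested. The fold change on this scale understates changes of low genes. The fit was tested on simulated data. RPKM are not counts, so no count test was run. The members and gene lists were chosen with earlier results of these data known. For members, the SE is that of the difference of group means on the log2 scale, with no test. The reads behind RPKM were estimated from low values (up to 12 reads) and annotated lengths of 20386 matched genes (98.1%). Per library 55.5% to 61.1% of these values came within 0.1 read of a whole number (20% by chance), so depth is approximate. The genes named are all 9 members, all genes of the other PDZ-LIM and FHL list, and per list and age up to 3 genes called higher and 3 called lower with the largest absolute log2 fold change among those without overlap of groups. Acta2, Tagln and the marker Tcf21 were named after their values were seen. For likeness, 3 genes per member were taken for the 7 members above the filter at both ages, of which Fhl3 is given by its first. Marker lists covered cardiomyocytes, fibroblasts, endothelial, epicardial, mural, macrophage and erythroid cells. In adult Ctrl and icKO the summed RPKM was 9.80 to 22.9 and 24.7 to 37.7 for endothelial, 1.06 to 3.05 and 1.97 to 4.05 for epicardial, 2.56 to 4.25 and 5.46 to 8.64 for macrophage, and 1.16 to 21.2 and 11.4 to 26.0 for erythroid markers. In E10.5 Ctrl and cKO it was 142 to 195 and 168 to 185, 48.9 to 57.4 and 40.2 to 57.1, 8.63 to 11.6 and 4.90 to 6.88, and 257 to 813 and 362 to 2199, in the same order. The full mural list, with Acta2, Tagln and Cnn1, summed to 504 to 611 and 686 to 839 at E10.5 and to 48.0 to 73.0 and 243 to 382 at 4 weeks. Sequences are from RefSeq (GRCm38.p6) and gene positions from GENCODE M21. The settings varied were the pseudocount (1 and 0.01), the RPKM filter (none and a mean above 5), median-ratio, quantile and top-20-free scaling, eBayes without trend, the replicate number as a block, and omission of each sample. Tables were read with Python 3.11.15 and pandas 2.3.3.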

Additional observations from a re-analysis of the deposited data

Results flagged for a closer look

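Of the members and list genes named, 4 had all knockout samples on one side of the controls at E10.5 and on the other side at 4 weeks, on the deposited scale. The share of all genes that did so was not computed, so nothing is read from this count. On that scale 6.50% of all genes tested were higher without overlap and 22.6% lower at E10.5. At 4 weeks 62.0% were higher and 18.9% lower. The difference between ages was not tested, and the ages also differ in tissue, Cre line and table. The log2 fold change of Fhl1 was −0.44 at E10.5 and 1.28 at 4 weeks, a difference of 1.71 (scaled values −0.32 and 0.71). That of Pdlim5 was −0.26 and 0.41, a difference of 0.68, and after median-ratio scaling the groups of Pdlim5 overlapped at both ages (−0.14 and −0.15). Ablim1 was at 0.31 at E10.5 and at −1.84 at 4 weeks, a difference of −2.15 (scaled values 0.43 and −2.40). Ldb3 was at 0.24 and −0.40, a difference of −0.64 (scaled values 0.36 and −0.97).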

How the results depend on the processing

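Depth limited Pdlim4 at E10.5 and Pdlim2 at 4 weeks, at most 11.95 and 8.94 reads a sample. Of the member log2 fold changes recomputed under the alternatives, 223 moved by less than the replicate spread and 26 by more. The count of 223 says little about stability. The filter, trend and block settings leave a fold change as it is, and omission of 1 sample cannot move it beyond this spread. Among members whose groups did not overlap, Pdlim5 at 4 weeks alone changed sign, under median-ratio scaling (−0.15). Pdlim2 at E10.5, whose groups overlapped, also changed sign, from −0.02 to 0.09 log2 fold change after that scaling. Over the omission of 1 sample, the value was 0.89 to 1.16 at E10.5 and 3.29 to 3.39 at 4 weeks for Pdlim7, −0.76 to −0.55 and −3.72 to −3.46 for Fhl2, and −0.51 to −0.38 and 1.09 to 1.48 for Fhl1. It was 0.13 to 0.66 for Pdlim3 and 0.32 to 0.80 for Fhl3 at E10.5 (0.32 without cKO replicate 3), −0.64 to −0.10 for Fhl3 and −1.15 to −0.57 for Pdlim4 at 4 weeks, and its sign changed for Pdlim1 and Pdlim2 at E10.5 (−0.05 to 0.11 and −0.22 to 0.15). All 108 shares of the pool recomputed without 1 sample stayed within the SD of their group, but this outcome was fixed in advance. Leaving out 1 of 3 samples always moves a mean share by less than that SD.

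The counts over all genes moved more, and the cause of these moves was not tested. At E10.5 26 genes were called higher and 59 lower. These became 12 and 36 with a pseudocount of 1, 9 and 34 with a mean RPKM above 5, and 48 and 36 without the 20 most abundant genes in the scaling. The lower count was 37 after quantile normalization and 38 without the trend. With no RPKM filter limma called 0 higher and 1 lower (108 and 208 at an unadjusted p under 0.05 past the fold threshold), and 0 list genes higher (3 unadjusted). Over the omission of 1 sample the counts ranged from 9 (without cKO replicate 2) to 36 higher and from 18 (without Ctrl replicate 3) to 102 lower (without cKO replicate 3). At 4 weeks the 2668 higher and 804 lower genes became 1687 and 454 with a mean RPKM above 5, 1053 and 1511 after median-ratio scaling and 1192 and 1349 after quantile normalization, and the 10 list genes called lower became 16 after median-ratio scaling. Over the omission of 1 sample they ranged from 2493 to 2795 and from 760 to 856. For list genes the ranges were 2 to 3 higher at E10.5, and 28 to 33 higher and 9 to 10 lower at 4 weeks. With 0 called lower at E10.5 by limma, no list gene passed the fold at an unadjusted p under 0.05 (0 unadjusted).

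Same-numbered samples deviated little together (r of deviations 0.01, 0.10 and −0.07 at E10.5 and 0.15, 0.04 and 0.05 at 4 weeks). With 3 samples per group, these values cannot settle whether the replicate numbers pair the samples. With the replicate number as a block, 32 genes were called higher and 61 lower at E10.5 and 2672 and 805 at 4 weeks. Of the named list genes that were called, 308 recomputed values kept direction and call and 14 lost the call. Med30 lost its call at E10.5 with no RPKM filter (adjusted p = 0.0804) and kept it in the other 29 recomputed values over both ages.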
